A study of Mus musculus with 60 samples.

Results

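Opalin and Pllp are 2 of the 770 genes of a brain neuroinflammation panel that was measured in the hippocampus (HPC), hypothalamus (HYP) and brain stem (BS) of 20 female Balb/C mice, 13 weeks old at collection and kept in 14 h of light and 10 h of dark. The mice had been injected with 67NR mammary tumor cells (tumor-bearing) or with DMEM as the vehicle (vehicle injected), and were collected 25 days later at mid-dark (ZT19, where ZT counts hours from lights on) or at mid-light (ZT7), with 5 mice in each of the 4 groups. Both genes were selected on these samples because of their dark against light difference, their level in each region and their shared variation, so those measurements are given below as descriptions with no test. The phase-averaged difference between tumor-bearing and vehicle injected mice played no part in that choice and was tested. Values were analysed for 56 of 60 listed samples. The submitters left out outliers by their raw data, and the brain stem of mouse 8 and the hypothalamus of mice 10, 12 and 32 were not analysed here, so the vehicle injected mid-dark group had 3 hypothalamus and 4 brain stem samples and the vehicle injected mid-light group had 4 hypothalamus samples.

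Oligodendrocytes wrap axons of the central nervous system in myelin, a stack of membrane that speeds conduction. Opalin encodes a glycosylated transmembrane protein of oligodendrocytes and central myelin. Pllp encodes plasmolipin, a proteolipid with several membrane-spanning segments that is found in myelin and in the apical membranes of some epithelia. The samples were pieces of whole tissue, so fewer oligodendrocytes and less RNA per oligodendrocyte cannot be told apart. Of 32 oligodendrocyte genes listed for comparison, 25 were on the panel, and none of the 25 was at the lowest value of the matrix in any sample.

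The sequences around the start sites of the genes are shown because Opalin and Pllp varied together across samples, as described below. Both were matched by symbol in RefSeq (build GRCm38.p6), each window runs from 250 bases before the start to 50 bases after it, and both lie on the minus strand. The Opalin window is chr19:41077064-41077363 and the Pllp window is chr8:94696193-94696492. Capitals mark matches to ACAAAG (core of Sox family sites) and to the reverse complement of CTGGCAC (a Myrf core) in Opalin, and to GGGCGG (a GC box) in Pllp.
Opalin: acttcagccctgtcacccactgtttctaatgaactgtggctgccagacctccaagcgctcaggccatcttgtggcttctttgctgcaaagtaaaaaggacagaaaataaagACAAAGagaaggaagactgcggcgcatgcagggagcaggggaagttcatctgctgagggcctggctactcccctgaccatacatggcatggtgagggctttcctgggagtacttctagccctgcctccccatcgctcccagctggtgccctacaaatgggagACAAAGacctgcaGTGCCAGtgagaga
Pllp: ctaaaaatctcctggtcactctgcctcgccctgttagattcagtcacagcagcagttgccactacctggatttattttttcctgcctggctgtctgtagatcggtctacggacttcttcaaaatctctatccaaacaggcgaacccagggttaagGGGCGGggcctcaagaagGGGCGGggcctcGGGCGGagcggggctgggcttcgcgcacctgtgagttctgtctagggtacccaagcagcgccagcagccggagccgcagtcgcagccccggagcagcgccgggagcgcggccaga

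Opalin held ACAAAG at 2 places, starting at positions -139 and 24 relative to the start site, and a match to CTGGCAC on the reverse strand at position 37. Pllp held GGGCGG at 3 places, starting at -95, -77 and -65. On both strands, ACAAAG was present in 18.7% of the 32851 promoter windows of the same length, CTGGCAC in 5.01% and GGGCGG in 35.7%. No match to CACGTG, the E-box that clock proteins bind, or to AGGTCA, the core of sites for ROR receptors, was found in either window. Those motifs were present in 7.15% and 16.3% of all windows. GC content was 54.3% for Opalin and 61% for Pllp, beside a median of 52.7%. None of the 5 motifs was shared by both windows.

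Opalin was lower at mid-dark than at mid-light in every region and in both tumor groups, with dark minus light differences from -1.29 to -1.02 on the log2 scale (2.03- to 2.45-fold). All values that follow are normalized expression on the log2 scale, so a difference of 1 is 2-fold. In the hippocampus of vehicle injected mice, the mid-dark values of Opalin were 8.69, 8.77, 8.82, 8.64 and 8.68, and its mid-light values 9.84, 9.80, 9.86, 9.91 and 9.38. Tumor-bearing mice had dark values of 8.76, 8.08, 8.72, 9.11 and 8.56 and light values of 9.68, 9.90, 9.42, 9.62 and 10.11 in the same region. The highest dark value lay below the lowest light value in both tumor groups, although the tumor-bearing mice were more spread at mid-dark (SD 0.37) than the vehicle injected mice (SD 0.07). The difference in the hippocampus was -1.04 (SE 0.16, n = 5 and 5) in vehicle injected and -1.10 (SE 0.16, n = 5 and 5) in tumor-bearing mice.

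Opalin in the hypothalamus of vehicle injected mice had dark values of 8.48, 8.68 and 8.10 and light values of 9.75, 9.65, 9.37 and 9.00. For tumor-bearing mice the dark values were 8.51, 8.56, 8.34, 8.39 and 8.56, and the light values 9.85, 9.70, 9.29, 9.43 and 9.43. Again no dark sample reached any light sample, and the difference was -1.02 (SE 0.18, n = 3 and 4) in vehicle injected and -1.07 (SE 0.15, n = 5 and 5) in tumor-bearing mice. The brain stem of vehicle injected mice had dark values of 9.07, 8.82, 8.83 and 8.84 and light values of 10.06, 10.43, 10.14, 10.18 and 10.09. That of tumor-bearing mice had dark values of 8.97, 9.10, 8.98, 9.02 and 9.20 and light values of 10.23, 10.27, 10.00, 10.25 and 10.31. The brain stem had the widest gap between the phases, with the highest of 9 dark values 0.80 below the lowest of 10 light values. The dark minus light difference there was -1.29 (SE 0.08, n = 4 and 5) in vehicle injected and -1.16 (SE 0.08, n = 5 and 5) in tumor-bearing mice.

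Pllp was also lower at mid-dark in every region and tumor group, with dark minus light differences from -0.92 to -0.61 on the log2 scale (1.53- to 1.90-fold). In the hippocampus, Pllp of vehicle injected mice had dark values of 7.69, 7.95, 7.65, 7.56 and 7.69 and light values of 8.55, 8.56, 8.46, 8.77 and 8.42. Tumor-bearing mice had dark values of 7.72, 7.35, 7.50, 7.96 and 7.75 and light values of 8.18, 8.63, 8.38, 8.65 and 8.67. All 10 dark values lay below all 10 light values, and the difference was -0.84 (SE 0.12, n = 5 and 5) in each tumor group.

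The phases lay closest together for Pllp in the hypothalamus. Vehicle injected mice had dark values of 8.01, 8.18 and 7.76 there, and light values of 8.78, 8.65, 8.61 and 8.36. In tumor-bearing mice the dark values were 7.85, 7.93, 7.77, 7.71 and 7.68 and the light values 8.58, 8.78, 8.13, 8.47 and 8.46. Within each tumor group the phases did not overlap, but across the tumor groups the highest dark value, 8.18 in vehicle injected mouse 8, exceeded the lowest light value, 8.13 in tumor-bearing mouse 9. The difference was -0.61 (SE 0.14, n = 3 and 4) in vehicle injected and -0.69 (SE 0.11, n = 5 and 5) in tumor-bearing mice.

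In the brain stem, Pllp of vehicle injected mice had dark values of 9.11, 8.66, 8.90 and 8.95 and light values of 9.63, 9.71, 9.39, 10.00 and 9.78. For tumor-bearing mice the dark values were 8.67, 8.83, 8.54, 8.80 and 8.74, and the light values 9.38, 9.90, 9.48, 9.79 and 9.65. The highest dark and the lowest light value were 0.27 apart, and the difference was -0.80 (SE 0.12, n = 4 and 5) in vehicle injected and -0.92 (SE 0.12, n = 5 and 5) in tumor-bearing mice.

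**Figure D1:**
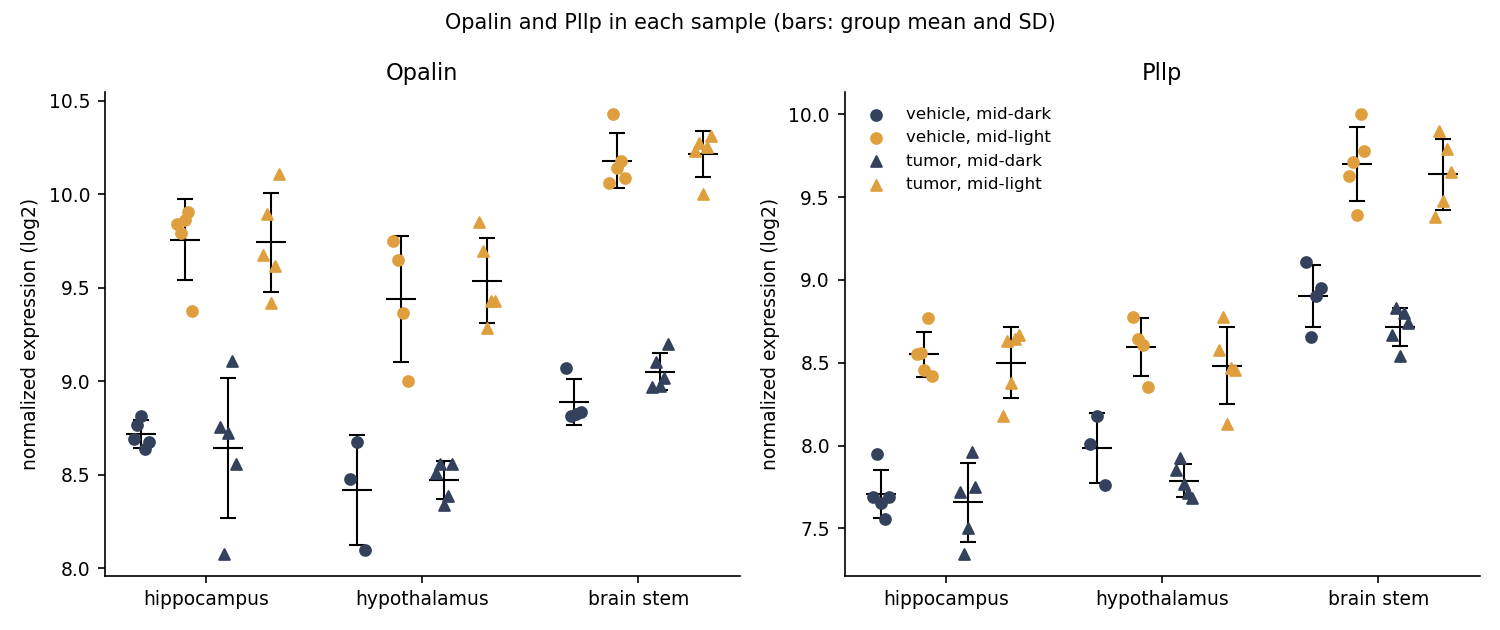
Normalized expression (log2) of Opalin (left) and Pllp (right) in each of 56 samples, by region; circles are vehicle injected and triangles tumor-bearing mice, dark blue is mid-dark and orange mid-light, and bars give the group mean and SD (n = 3 to 5). In each pair of groups the mid-dark samples lie below the mid-light samples, with the widest gap for Opalin in the brain stem of vehicle injected mice (0.99).

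Because the difference between phases chose these genes, the counts of genes that separate the phases are given as background and nothing is read from them. Dark and light values did not overlap for 4.16% of the 770 genes in the hippocampus of vehicle injected and 1.95% of tumor-bearing mice, for 7.92% and 2.47% in the hypothalamus, and for 5.84% and 2.34% in the brain stem, and Opalin and Pllp were among them each time. With both tumor groups pooled, 4 genes did not overlap in the hippocampus (0.519%), 6 in the hypothalamus (0.779%) and 2 in the brain stem (0.260%). The 2 in the brain stem were Opalin and Pllp, and the hypothalamus genes included Opalin but not Pllp. By the size of the dark minus light difference averaged over regions and tumor groups, Opalin ranked 1 (-1.11, SE 0.06, 2.16-fold) and Pllp ranked 2 (-0.78, SE 0.05, 1.72-fold) of 770 genes. Within a single region and tumor group, Opalin ranked between 2 and 5 and Pllp between 5 and 15.

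The purity and amount of RNA, and the markers of other cell types, are given beside these differences. The 260/280 absorbance ratio in the brain stem ran from 1.34 to 2.01 at mid-dark and from 1.51 to 1.99 at mid-light, with medians of 1.95 and 1.96. It was below 1.9 in 4 of 9 dark and 3 of 10 light brain stem samples, in 1 of 10 dark and 0 of 10 light hippocampus samples, and in 1 of 8 dark and 1 of 9 light hypothalamus samples. When only samples of at least 1.9 were used, a choice made after the data were seen, the dark minus light difference in the brain stem was -1.36 in vehicle injected and -1.21 in tumor-bearing mice for Opalin, and -0.80 and -1.09 for Pllp. Median RNA concentrations at mid-dark and mid-light were 1212 and 1091 ng/µl in the hippocampus, 660 and 691 ng/µl in the hypothalamus, and 2699 and 2545 ng/µl in the brain stem. These ranges overlapped between the phases in each region.

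Of listed markers of other cells, 9 of 12 for astrocytes, 11 of 13 for microglia, 10 of 11 for neurons and 8 of 9 for endothelium were measured, and none of these was at the lowest value of the matrix. On the log2 of the summed level of a list, dark and light ranges overlapped for each of the 4 lists in every region. For astrocytes the sum ran from 14.67 to 14.87 at mid-dark and from 14.62 to 14.89 at mid-light in the hippocampus, from 15.20 to 15.38 and from 15.26 to 15.42 in the hypothalamus, and from 15.31 to 15.58 and from 15.26 to 15.51 in the brain stem. For microglia it ran from 12.99 to 13.41 and from 13.11 to 13.40, from 12.80 to 13.14 and from 12.79 to 13.05, and from 12.54 to 13.10 and from 12.58 to 13.01 in the same order. The neuron sum ran from 15.86 to 16.10 and from 15.86 to 16.09, from 15.43 to 15.60 and from 15.45 to 15.61, and from 15.12 to 15.41 and from 15.17 to 15.43. With the tumor groups pooled, the mean dark minus light difference of these sums was at most 0.07 in size for the 3 cell types. Single astrocyte markers ran from -0.21 to 0.13 over the 3 regions (median -0.04). Of these 9 markers, limma called 1 higher and 1 lower, beside 13.5% of all genes called. No microglia or neuron marker was called in that fit. In the hippocampus of vehicle injected mice, 11 of 11 microglia markers were below 0, with a median of -0.18. The median was -0.16 over the other oligodendrocyte genes and 0.002 over all genes. Of the 11, 6 had an unadjusted p under 0.05 and 0 were called by limma, beside 2.34% of all genes called. In tumor-bearing mice 3 of 11 were below 0 (median 0.05, beside 0.01 over all genes). Whether the tumor groups differed for microglia was not tested. The share of all genes below 0 or with an unadjusted p under 0.05 was not computed. The endothelium sum was slightly higher at mid-dark in each region, by 0.06 in the hippocampus (11.02 to 11.43 at mid-dark, 11.10 to 11.34 at mid-light), 0.14 in the hypothalamus (11.39 to 11.59 and 11.03 to 11.51) and 0.10 in the brain stem (11.50 to 11.65 and 11.29 to 11.61). Most endothelium markers did not follow the sum: over the 3 regions 5 of 8 were below 0 (median -0.05), 1 was called higher, Cldn5 at 0.37, and 1 lower, Icam2 at -0.19 (both named after their values were seen). The part of these cells in the Opalin and Pllp differences was not tested.

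The other oligodendrocyte genes moved less with phase than Opalin and Pllp. That pair was chosen by its phase difference, so nothing is read from this comparison. With the tumor groups pooled, their mean dark minus light difference was -0.25 in the hippocampus, -0.05 in the hypothalamus and -0.10 in the brain stem. Pooled dark and light samples overlapped in each region. The mean differed by -0.13, 0.03 and -0.03 in vehicle injected and by -0.38, -0.08 and -0.15 in tumor-bearing mice. In the brain stem of tumor-bearing mice the lowest light value lay 0.0031 above the highest dark value. Measured against the mean of these genes within each sample, the pooled difference of Opalin was -0.82, -0.999 and -1.12 in the same regions. Pllp, measured in the same way, differed by -0.59, -0.63 and -0.77. By tumor group, vehicle injected first, Opalin differed by -0.91 and -0.72, -1.05 and -0.98, and -1.26 and -1.01 in the same regions. Pllp differed by -0.72 and -0.46, -0.64 and -0.61, and -0.76 and -0.77. Whether the tumor groups differed on this scale was not tested. On this relative scale no dark sample reached a light sample in any region. For Pllp in the hypothalamus the lowest light value lay 0.22 above the highest dark value. The share of all genes that separate on this scale was not computed. The phase difference chose both genes, so nothing is read from the separation.

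In the model over the 3 regions, 9 of the 25 other oligodendrocyte genes fell and 1 rose at mid-dark (limma, adjusted p under 0.05), where 104 of all 770 genes were called (13.5%), 62 of them higher and 42 lower. The median difference was -0.11 over the 25 genes and 0.01 over all genes. Genes of the myelin sheath and its lipids were among those that fell. Mag, a sialic acid-binding adhesion protein of the inner myelin membrane, fell by 0.36 (SE 0.07, adjusted p = 6.098e-05), and Mog, a surface glycoprotein of the outermost myelin layer, fell by 0.33 (SE 0.07, adjusted p = 0.0004325). Cnp, an enzyme of non-compact myelin, fell by 0.28 (SE 0.05, adjusted p = 2.467e-05), and Fa2h, which makes the 2-hydroxylated fatty acids of myelin galactolipids, fell by 0.28 (SE 0.06, adjusted p = 0.0009745). Gpr62, an orphan receptor, fell by 0.17 (SE 0.04, adjusted p = 0.005045).

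Erbb3, a neuregulin receptor of the oligodendrocyte lineage, was the 1 that rose, by 0.21 (SE 0.05, adjusted p = 0.002705). Mobp, a basic protein of compact myelin, differed by -0.08 (adjusted p = 0.5084), and Mal, a raft-associated proteolipid, by -0.02 (adjusted p = 0.8618) in limma's test. The largest difference of these 25 genes was that of Mag at -0.36. It was smaller than those of Pllp and Opalin, which were chosen by their phase difference.

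**Figure D2:**
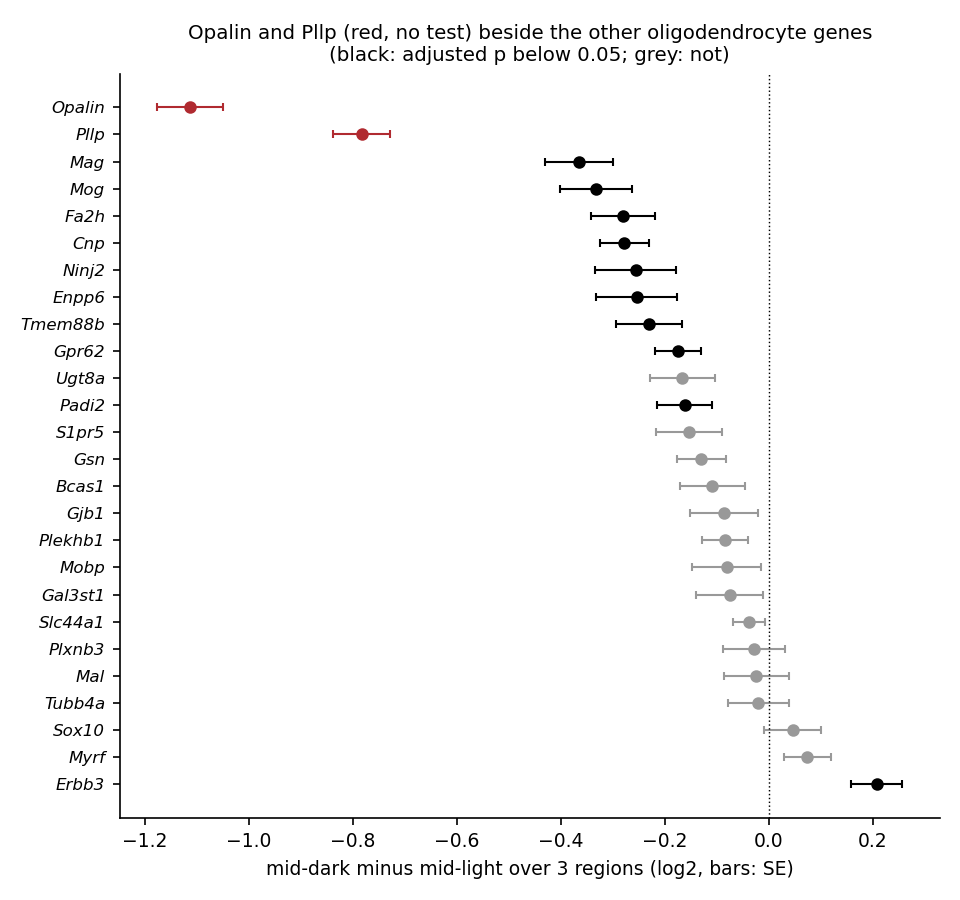
Mid-dark minus mid-light difference (log2, with SE) averaged over 3 regions for Opalin and Pllp (red, given with no test) and 24 of the 25 other oligodendrocyte genes (black where the adjusted p was below 0.05, grey otherwise). Opalin (-1.11) and Pllp (-0.78), chosen by this difference, lie to the left of the other genes, of which Mag (-0.36) is the lowest.

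Region by region, few of the other oligodendrocyte genes passed the test (limma, adjusted p under 0.05). For the counts below 0 or with an unadjusted p under 0.05, the share of all genes was not computed. Nothing is read from those counts. In the hippocampus, 0 of 25 were called in vehicle injected mice, where 4 had an unadjusted p under 0.05, 20 were below 0 (median -0.16) and 2.34% of all genes were called. In tumor-bearing mice 3 fell, Cnp by 0.64 (adjusted p = 0.01412), Mag by 0.65 (adjusted p = 0.04304) and Fa2h by 0.60 (adjusted p = 0.04304), beside 1.04% of all genes. All 25 were below 0 there, with a median of -0.33, and 20 had an unadjusted p under 0.05. The count was 0 without mouse 7 or 29, 1 without mouse 2, 4, 5, 9, 10, 11, 12, 13, 23 or 32, and 5 without mouse 19, and it was 0 with only the tumor-bearing mice fitted or with the reference genes subtracted. Mouse 7 and mouse 19 also held the lowest and highest Opalin and Pllp values of the tumor-bearing dark hippocampus.

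In the hypothalamus, 0 of 25 were called in vehicle injected mice (2 with an unadjusted p under 0.05, 8 below 0, median 0.03, 0.260% of all genes called by limma) and 0 of 25 in tumor-bearing mice (4 with an unadjusted p under 0.05, 21 below 0, median -0.10, 1.04% of all genes called). In the brain stem, 24 of the genes were tested. None of the 24 was called in vehicle injected mice (6 with an unadjusted p under 0.05 in limma, 14 below 0, median -0.04, 1.30% of all genes called). In tumor-bearing mice Mog fell by 0.31 (adjusted p = 0.02946), 1 of 24 genes beside 0.780% of all genes, with 22 below 0 (median -0.14). That call was lost with only the tumor-bearing mice fitted, with the reference genes subtracted, and without mouse 5, 9, 11, 13, 19 or 29, and the count was 2 without mouse 7 or 22 and 3 without mouse 10. Whether the tumor groups differed in these counts was not tested.

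The difference between phases was similar in size in tumor-bearing and vehicle injected mice, and is described with its 95% interval since it derives from the values that chose the genes. For Opalin, the difference in tumor-bearing minus that in vehicle injected mice was -0.06 (-0.53 to 0.41) in the hippocampus, -0.04 (-0.54 to 0.45) in the hypothalamus and 0.13 (-0.12 to 0.38) in the brain stem. For Pllp it was 0.00064 (-0.35 to 0.35), -0.08 (-0.46 to 0.30) and -0.13 (-0.49 to 0.24). These intervals hold 0 and are wide beside the differences themselves, so a modest change in either direction was not detectable with these numbers of mice.

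Neither gene passed the test between tumor-bearing and vehicle injected mice averaged over the phases. Opalin differed by -0.04 (SE 0.11, adjusted p = 0.9647) in the hippocampus, 0.08 (SE 0.11, adjusted p = 0.9109) in the hypothalamus and 0.10 (SE 0.06, adjusted p = 0.8802) in the brain stem in limma's test. Pllp differed by -0.05 (SE 0.08, adjusted p = 0.9602), -0.15 (SE 0.09, adjusted p = 0.7566) and -0.13 (SE 0.08, adjusted p = 0.9051) in the same regions. In these comparisons 0.520%, 0.260% and 1.04% of all genes were called. Over the 3 regions, with the mouse as a random block, Opalin differed by 0.04 (95% interval -0.09 to 0.17, adjusted p = 0.8893, limma) and Pllp by -0.11 (95% interval -0.22 to 0.0018, adjusted p = 0.5206, limma), where 2.34% of all genes were called. The interval for Opalin leaves out a tumor difference as large as its phase difference, as does that for Pllp. Of the other 25 oligodendrocyte genes, 0 were called over the 3 regions by limma, and 5 had an unadjusted p under 0.05. Of the 25, 21 were below 0, with a median of -0.09 beside -0.01 over all genes. The share of all genes below 0 or with an unadjusted p under 0.05 was not computed.

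By region, the level of Opalin was highest in the brain stem, followed by the hippocampus and the hypothalamus. Its mean over all samples was 9.62 in the brain stem (8.82 to 10.43, n = 19), 9.22 in the hippocampus (8.08 to 10.11, n = 20) and 9.00 in the hypothalamus (8.10 to 9.85, n = 17). Within a mouse, the brain stem exceeded the hypothalamus by 0.66 ± 0.20 (SD, 16 of 16 mice) and the hippocampus by 0.38 ± 0.28 (SD, 17 of 19 mice, with equal values of 8.82 in mouse 12 and a higher hippocampus in mouse 19). The hippocampus exceeded the hypothalamus by 0.23 ± 0.30 (SD, 14 of 17 mice). Single mice ran from -0.48 to 0.72, and the mean difference was not tested. Of the 16 mice with all 3 regions, 12 had the order brain stem, hippocampus, hypothalamus. Of the others, 2 had the hypothalamus above the hippocampus, 1 had the hippocampus highest, and mouse 23 had the same value, 8.56, in both forebrain regions.

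For Opalin the gap between phases was partly wider than that between regions. The highest mid-dark value in the brain stem, 9.20, lay below the lowest mid-light value in the hippocampus, 9.38, although above the lowest mid-light value in the hypothalamus, 9.00. The brain stem minus hippocampus difference was 0.31 ± 0.34 (SD, n = 9) at mid-dark and 0.45 ± 0.20 (SD, n = 10) at mid-light.

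Pllp had a different regional pattern, with the brain stem apart from the other regions in every mouse. Its mean was 9.26 in the brain stem (8.54 to 10.00, n = 19), 8.22 in the hypothalamus (7.68 to 8.78, n = 17) and 8.10 in the hippocampus (7.35 to 8.77, n = 20). The brain stem exceeded the hippocampus by 1.15 ± 0.18 (SD, 19 of 19 mice) and the hypothalamus by 1.09 ± 0.21 (SD, 16 of 16 mice). The hippocampus minus hypothalamus difference was -0.08 ± 0.25 (SD), above 0 in 7 of 17 mice, so the order of these neighbours was not resolved. For Pllp the regional step was larger than the step between phases, and mid-dark brain stem values (8.54 to 9.11) reached into the range of mid-light hippocampus values (8.18 to 8.77).

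**Figure D3:**
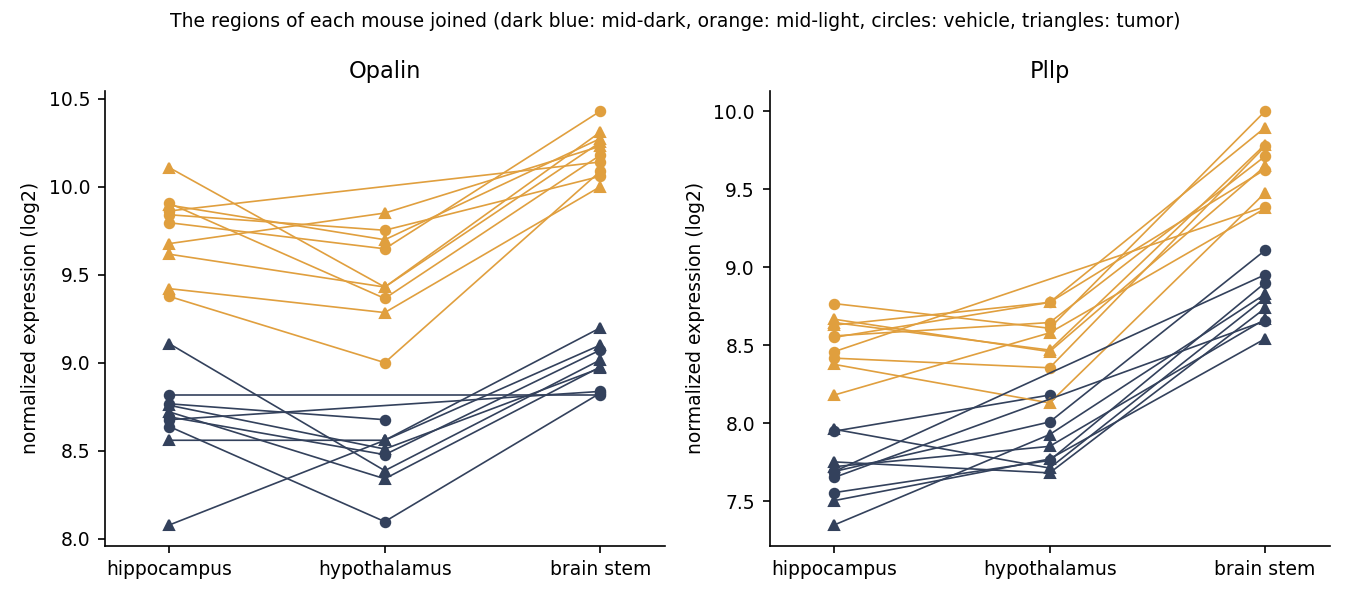
Normalized expression (log2) of Opalin (left) and Pllp (right) by region, with the samples of each mouse joined by a line; dark blue is mid-dark, orange mid-light, circles are vehicle injected and triangles tumor-bearing mice, and a line passes over the hypothalamus where a mouse has no value there. Pllp rises to the brain stem in each of the 19 mice measured there, whereas Opalin does so from the hippocampus in 17 of these 19 mice.

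Beyond the groups, samples that were high for Opalin tended to be high for Pllp. Each value was taken as its deviation from the mean of its region, tumor and phase group, which removes the differences above. Pearson's r between the genes was 0.67 in the hippocampus (Spearman's rho 0.58, n = 20), 0.82 in the hypothalamus (rho 0.83, n = 17) and 0.41 in the brain stem (rho 0.48, n = 19). Without the 2 samples farthest from the median of Opalin it was 0.56, 0.75 and 0.40. The points share the sample, its tissue piece and its normalization, so they are descriptions and have no p. In the mid-dark hippocampus alone, r was 0.76 (rho 0.44, n = 10) and 0.096 without 2 samples. This r thus rests largely on mice 7 and 19, low and high for both genes. In the mid-dark hypothalamus r also fell, from 0.83 (rho 0.66, n = 8) to 0.36 without 2 samples. At mid-light in the hypothalamus r was 0.82 (rho 0.86, n = 9) and 0.83 without 2 samples.

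Over all 56 deviations r was 0.64, and 9 genes were more like Opalin than Pllp was, among 769 other genes. The 3 most like Opalin were Bcas1 (r = 0.80), a protein of myelinating oligodendrocytes, Ugt8a (r = 0.78), which makes galactosylceramide, and Gjb1 (r = 0.77), the gap junction protein connexin 32. For Pllp, 8 genes were more like it than Opalin was, led by Tmem88b (r = 0.79), a transmembrane protein, Mag (r = 0.78) and Gal3st1 (r = 0.77), which makes sulfatide from galactosylceramide.

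These genes were chosen by r over the pooled deviations of all regions, so a high r in some of the regions was fixed in advance. The values by region are given as a description, and nothing is read from how they differ. In the brain stem, r with Opalin was 0.27 for Bcas1, 0.29 for Ugt8a and 0.11 for Gjb1. In the hippocampus it was 0.86, 0.85 and 0.93. The genes most like Pllp kept higher values in the brain stem, with r of 0.59 for Tmem88b, 0.81 for Mag and 0.77 for Gal3st1. The SD of Opalin within groups was 0.10 to 0.15 there, 0.07 to 0.37 in the hippocampus and 0.10 to 0.34 in the hypothalamus. Its part in these r values was not tested.

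The genes most like Opalin and Pllp within groups are given with their own difference between the phases. Over the 3 regions, Bcas1 differed by -0.11 (SE 0.06, adjusted p = 0.304), Ugt8a by -0.17 (SE 0.06, adjusted p = 0.06631), Gjb1 by -0.09 (SE 0.07, adjusted p = 0.4713) and Gal3st1 by -0.08 (SE 0.06, adjusted p = 0.5375) in limma's test. Tmem88b fell by 0.23 (SE 0.06, adjusted p = 0.009988). Opalin and Pllp were chosen by their phase difference and ranked 1 and 2 of 770 genes in this fit. Smaller values in these 5 genes were therefore fixed in advance.

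**Figure D4:**
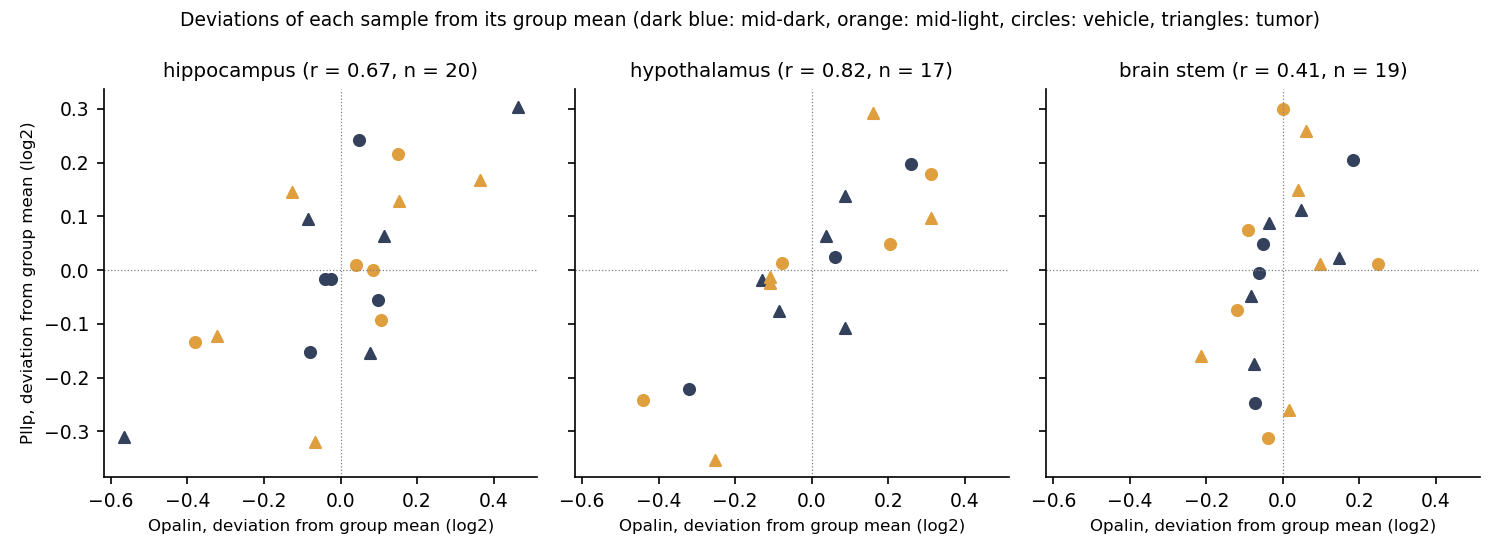
Deviation of Pllp (vertical) against deviation of Opalin (horizontal) from the mean of the same region, tumor and phase group (log2), 1 point a sample, by region; dark blue is mid-dark, orange mid-light, circles are vehicle injected and triangles tumor-bearing mice. The points rise together in the hypothalamus (r = 0.82) and hippocampus (r = 0.67), and are more scattered in the brain stem (r = 0.41).

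A mouse that was high in 1 region was only partly high in the others. For Opalin, r between the deviations of a mouse in the hippocampus and hypothalamus was 0.21 (n = 17), in the hippocampus and brain stem 0.12 (n = 19), and in the hypothalamus and brain stem 0.43 (n = 16). For Pllp these were 0.18, 0.52 and 0.25. Without the 2 mice farthest from the median the values were 0.45, 0.31 and 0.42 for Opalin and 0.49, 0.43 and -0.16 for Pllp, so several rest on which mice are included. Over all genes the median r was 0.14, 0.16 and 0.16, and the range from percentile 5 to percentile 95 was -0.32 to 0.59, -0.29 to 0.65 and -0.33 to 0.65, so neither gene stood outside the range of the panel.

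Of the 16 mice with 3 regions, 3 lay below their group mean in every region for Opalin (mice 9, 28 and 30) and 2 above it (mice 5 and 6). Mouse 30, vehicle injected at mid-light, deviated by -0.38 in the hippocampus, -0.44 in the hypothalamus and -0.09 in the brain stem. For Pllp, 3 lay below in every region (mice 9, 11 and 28) and 3 above (mice 5, 6 and 22). Mice 9 and 28 were thus low for both genes throughout, and mice 5 and 6 high for both.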

How the data were processed

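RNA of HPC, HYP and BS was counted on the nanoString nCounter Mouse Neuroinflammation Panel. The deposited values are log2 expression values, which the authors made in nSolver v3 (subtraction of negative controls, scaling to positive controls and to the CodeSet content) and in Partek GS v6.6 (quantile normalization). Raw counts were not used, so depth is unknown and the number of mice limits the precision. The quantile step fixes the set of values a sample can take, and genes without any spread within a region were left out of its tests. Of the matrix, 1 row without a gene name was left out.

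The labels gave the group of a sample (its region, injection and phase) and its mouse. Mice are the replicates, but the cartridge of each sample was not given in the sources used here. In R 4.3.3 with limma 3.58.1, a model with a mean for each of 4 groups was fitted to all genes of a region, and a model with 12 group means to all 56 samples with the mouse as a random block (consensus correlation 0.136). P-values were adjusted by Benjamini-Hochberg over all genes tested (threshold 0.05). Intervals are at 95%. Regions share mice, so pairing is by mouse. The script was tested on simulated data. Deviations and correlations were computed in Python 3.11.15 with pandas 2.3.3, numpy 2.4.6 and scipy 1.17.1, and plots drawn with matplotlib 3.10.9.

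Opalin, Pllp and the gene lists were chosen with earlier results of these data known. Genes named are these, the 3 genes with the highest r to each, and of the other oligodendrocyte genes Mog, Mag, Cnp, Mobp, Mal and the 6 with the smallest p for dark against light. A further gene named by this rule is not reported here. Alternatives were other samples in the fit, a mean log2 minimum of 5, sample medians or reference genes subtracted, quantile normalization within regions, ordinary p-values, no mouse block, and each mouse left out.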

Additional observations from a re-analysis of the deposited data

Results flagged for a closer look

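Among the 22 groups of 4 or 5 samples per gene and region, 3 held a sample far from the others by Dixon's test, all for Opalin. Chance flags about 1 in 20 such groups. In the brain stem of tumor-bearing mice at mid-light, mouse 9 had 10.00, where the next lowest value was 10.23 and the highest 10.31. Mouse 4 had 9.07 in the brain stem of vehicle injected mice at mid-dark, where the other values ran from 8.82 to 8.84. In the hippocampus of vehicle injected mice at mid-light, mouse 30 had 9.38, where the other values ran from 9.80 to 9.91. Each of these samples lay toward the other phase, and each remained on the side of its own phase.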

How the results depend on the processing

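The direction of each Opalin and Pllp dark minus light difference held in all 27 alternatives. Values ran from -1.36 to -0.86 for Opalin and from -1.09 to -0.50 for Pllp over regions and tumor groups. Some alternatives could not change a difference, such as ordinary p-values, the log2 minimum or a single tumor group fitted. Nor could leaving out mice of the other tumor group. The differences chose the genes, so nothing is read from their direction. No tumor difference passed the test under any alternative (adjusted p from 0.66 to 1 for Opalin and from 0.21 to 0.9975 for Pllp), and the sign of the Opalin tumor difference was not fixed in the hippocampus (-0.10 to 0.03), in the hypothalamus (-0.0042 to 0.14) or over 3 regions (-0.00083 to 0.08). With no replicate block for the mouse over 3 regions, the tumor difference was 0.04 for Opalin (adjusted p = 0.7973, limma) and -0.11 for Pllp (adjusted p = 0.3274, limma), and 12 in place of 10 other oligodendrocyte genes were called dark against light. Over all 28 alternatives that count ran from 7 to 12. Counts within tumor-bearing mice moved more. In the hippocampus (3 called) the count was 0 with only that tumor group fitted, 0 with the reference genes subtracted, 1 with ordinary p-values, 1 with samples of a 260/280 ratio of at least 1.9 (added after the data were seen), and 0 to 5 when single mice were left out. In the brain stem (1 called) it was 0 with only that tumor group fitted, 0 with the reference genes subtracted and 0 to 3 when single mice were left out. In the hypothalamus (0 called) it was 0 to 1 when single mice were left out, with 1 without mouse 5. The cause was not tested. Depth is unknown.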
